A study of Mus musculus with 24 samples.

Results

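The comparison described here is lung gene expression 24 h after intratracheal bleomycin against 24 h after saline in C57BL/6J mice, the inbred strain in which bleomycin readily produces lung fibrosis. It holds 4 of the 24 arrays of the study, 2 after bleomycin at 1.5 U per kg and 2 after saline, all chosen from the sample titles. The study asks, by its title, how heredity sets sensitivity to lung fibrosis. It measured total RNA of whole murine lung on an Affymetrix expression array in C57BL/6J and BALB/c mice at 24 h, 72 h and 14 d, with 2 arrays, a and b, in each of 12 groups. The age and sex of the animals are not given in the sources used here, and nothing in the labels ties arrays a and b to different animals, so every p-value below measures only the spread between arrays, which may be technical. Of the 12488 probe sets, 8718 were tested and stood for 6468 genes with 1 name. A gene was called at an adjusted p under 0.05 in limma. Intensities are in the linear units of the deposited table, and differences are on the log2 scale after an offset of 91 was added, which understates the change of dim genes.

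Bleomycin binds metal and oxygen and breaks DNA. Broken DNA stabilises the transcription factor p53, which switches on genes that stop the cell cycle, repair DNA or lead to cell death, and it also switches on Mdm2, which in turn degrades p53. Cells that sense nucleic acids out of place make interferons, whose receptors drive a set of antiviral genes through a short promoter element, while damaged epithelium and macrophages release chemokines that call in neutrophils and monocytes. In mice given bleomycin by the airway, injury and inflammation come first and the scar of collagen follows later.

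The 2 control arrays of 24 h stood apart from the other 22 in a way that touches the results. Their titles carry a different ending, their values were written with 6 decimals against 16 to 19 elsewhere, and their 99th percentiles of 13003 and 12553 lay above those of every other array, of which the highest was 11452. Their actin 3′ to 5′ ratios of 2.25 and 1.49 lay above the 0.0183 to 0.872 of the others, and their brightest probe sets reached 78641 and 43230. The same ratio for Gapdh did not set them apart, at 1.62 and 1.07 within the 0.583 to 2.16 of the others. Every call was therefore set against the 2 arrays of C57BL/6J lung taken 14 d after saline, a check that uses the same bleomycin arrays and so is not independent of the first comparison. The title ending and the group cannot be told apart, since no other group carries that ending. A further point was a gap within the 24 h saline pair. Array b read far higher than array a for several chemokine and acute phase genes, as described with those genes. This gap was not particular to the pair, since BALB/c saline at 24 h showed a like one.

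Bleomycin against saline at 24 h gave 145 called genes, 2.24% of those tested, of which 79 were higher (1.22%) and 66 lower (1.02%). Without adjustment, 1277 probe sets had a p under 0.05. Of the 104 probe sets called higher (1.19%), 92 were also above both saline 14 d arrays, and 4 had the opposite sign against them. Of the 90 probe sets called lower (1.03%), 32 were also below both saline 14 d arrays, and 29 had the opposite sign. Among 282 bright probe sets, those whose mean on the saline 24 h arrays passed 6888 (the lowest of the 24 array maxima), 45 were called lower and 0 higher, and 23 of the 45 turned to the other sign against saline 14 d. Among the 45 called falls that were not bright, 6 turned. The bright probe sets were picked by their level on the control arrays of the comparison, which by itself favours lower calls and a turn against another control, so these counts are a description only.

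**Figure D1:**
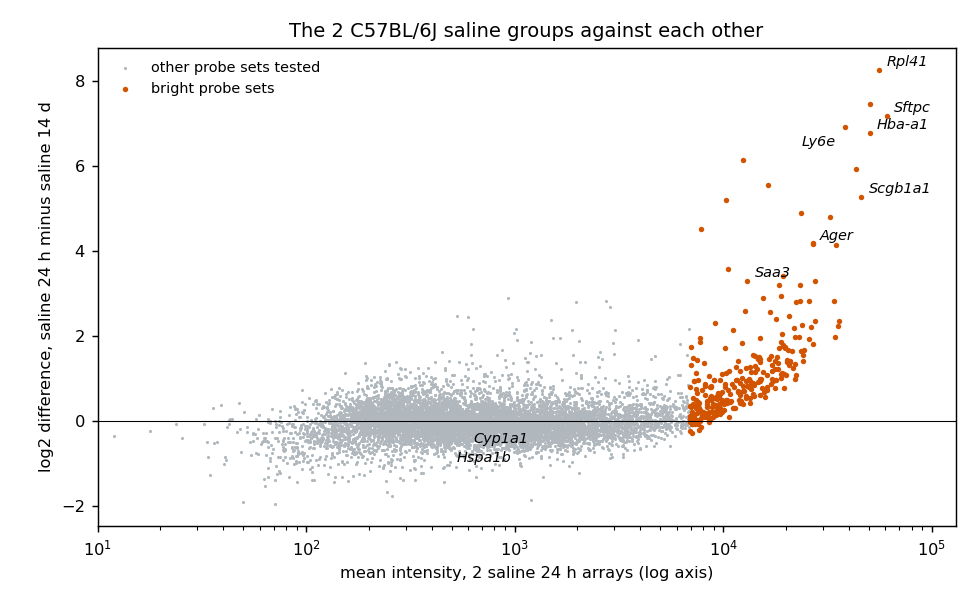
The 2 C57BL/6J saline groups are compared, with the mean intensity on the saline 24 h arrays on a log axis and the log2 difference between saline at 24 h and at 14 d on the vertical axis, 1 point for each probe set tested. Both axes use the saline 24 h arrays, and the bright probe sets (orange) rise above 0 with intensity, to Sftpc, Scgb1a1, Rpl41 and Hba-a1, while Cyp1a1 and Hspa1b lie below 0.

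Counting only genes that were called and whose bleomycin arrays both lay outside both control pairs left 70 genes higher, 1.08% of those tested, and 26 lower, 0.402%. Without the call, 801 genes (12.4%) met the same order upward and 585 (9.04%) downward. The called and clear rises ran from 1.52 to 6.1-fold, and 41 of the 70 were called against saline 14 d as well, where 2.3% of all genes were called higher. The called and clear falls ran from 1.5 to 9.69-fold, and 13 of the 26 were called against saline 14 d, where 2.52% of all genes were called lower. The order against the saline 14 d arrays was part of the filter, which by itself favours calls against them. The counts of 41 and 13 are therefore a description only.

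Many of the firmest rises belonged to the p53 and interferon lists, which held the most called rises of the lists. Gm9706, Cox6b2 and Gclc, on neither list, were also called under all 37 alternatives with the 24 h control. The smallest p belonged to a probe set with no gene name. Promoter stretches of called p53 and interferon genes that hold the matching element are shown first. The sequences are from RefSeq on the GRCm38.p6 build, 5′ to 3′ on the strand of the gene, and the capitals mark the matches. The interferon-stimulated response element was searched as GAAANNGAAA and the p53 decamer by name, on both strands, in the 250 bases before to 50 bases after each gene's start. Isg15 has 3 overlapping matches at chr4:156200819-156200948 (minus strand), Ifit1 has 2 at chr19:34640759-34640888 (plus), Rsad2 has 1 at chr12:26456453-26456592 (minus) and Ifit3 has 2 at chr19:34583353-34583528 (plus).
Isg15: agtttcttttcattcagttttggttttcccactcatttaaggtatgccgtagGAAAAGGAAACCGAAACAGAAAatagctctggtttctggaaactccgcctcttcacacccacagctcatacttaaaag
Ifit1: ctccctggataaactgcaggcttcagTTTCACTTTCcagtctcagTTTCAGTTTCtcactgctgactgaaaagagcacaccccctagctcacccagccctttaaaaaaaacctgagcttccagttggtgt
Rsad2: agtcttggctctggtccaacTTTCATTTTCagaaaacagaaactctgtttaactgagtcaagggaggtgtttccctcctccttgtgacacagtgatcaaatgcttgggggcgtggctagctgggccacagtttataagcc
Ifit3: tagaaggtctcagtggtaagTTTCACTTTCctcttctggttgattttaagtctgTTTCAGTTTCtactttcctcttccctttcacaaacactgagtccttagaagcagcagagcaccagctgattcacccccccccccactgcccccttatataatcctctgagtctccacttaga
Among the p53 targets, Ccng1 has 1 decamer at chr11:40755392-40755491 (minus), Cdkn1a has 2 at chr17:29090849-29090978 (plus), Mdm2 has 1 at chr10:117710865-117710964 (minus) and Ei24 has 1 at chr9:36797335-36797464 (minus).
Ccng1: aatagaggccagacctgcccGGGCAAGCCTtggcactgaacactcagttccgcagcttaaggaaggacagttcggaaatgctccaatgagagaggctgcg
Cdkn1a: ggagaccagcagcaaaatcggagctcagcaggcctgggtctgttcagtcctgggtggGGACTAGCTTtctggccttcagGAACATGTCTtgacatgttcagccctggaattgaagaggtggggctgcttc
Mdm2: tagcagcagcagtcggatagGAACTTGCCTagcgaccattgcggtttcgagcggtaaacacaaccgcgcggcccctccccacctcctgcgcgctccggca
Ei24: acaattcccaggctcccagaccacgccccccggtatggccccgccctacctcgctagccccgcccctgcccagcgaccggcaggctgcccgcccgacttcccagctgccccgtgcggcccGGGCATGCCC
The interferon element occurs in 1131 of all 32851 promoters in the table (3.44%). Counted by gene, where any promoter of a gene may match, it occurs in 1079 of 27025 genes (3.99%). It occurs in 5 of the 7 called interferon genes with a promoter there, against 14 of the 30 tested list members with one. The p53 decamer occurs in 2745 promoters (8.36%), in 6 of the 9 called p53 targets with a promoter and in 8 of the 19 tested members with one. Matches are descriptions of these letters and were not tested.

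Of the 23 p53 targets tested, 11 rose, where 1.22% of all genes were called higher, and 1 probe set, that of Plk3, fell. The median difference of the list was 0.96, beside 0.05 over all genes tested. Cdkn1a, which encodes the cell cycle inhibitor p21, read 3086 and 4035 after bleomycin, 663 and 642 after saline at 24 h and 1426 and 1476 after saline at 14 d. The bleomycin arrays lay above every control array, and the difference was 2.28 ± 0.27 (SE, adjusted p = 0.000175) against saline 24 h and 1.23 against saline 14 d (adjusted p = 0.0154), since saline at 24 h was itself below saline at 14 d by 1.05 on the log2 scale (adjusted p = 0.0435). A second Cdkn1a probe set differed by 2.2. The calls for Cdkn1a held under each of 37 alternatives with the 24 h control.

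Ccng1, cyclin G1, read 3838 and 3285 after bleomycin, 753 and 868 after saline at 24 h and 677 and 1011 at 14 d. It rose by 2.02 ± 0.21 (adjusted p = 5.09e-05), and by 1.99 against saline 14 d, the control pairs overlapping each other. Phlda3, an inhibitor of the survival kinase Akt, read 4833 and 4669 against 1157 and 1284, and 1703 and 1084 at 14 d, a rise of 1.89 ± 0.20. Mdm2, the ubiquitin ligase that removes p53, read 4128 and 4903 against 1686 and 1532, and 2244 and 2028 at 14 d, a rise of 1.43 ± 0.18 (adjusted p = 0.000289). In these genes the bleomycin arrays lay close together and above every control array. Ei24, a protein of the endoplasmic reticulum induced by p53, read 6044 and 5910 against 2887 and 2698, with 2846 and 2871 at 14 d.

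The remaining called p53 targets were dimmer. Ckap2, a protein of the mitotic spindle, read 537 and 617 after bleomycin and 70.1 and 140 after saline, with 215 and 142 at 14 d (1.79, adjusted p = 0.000734). Perp, a membrane protein of desmosomes and p53-driven cell death, read 1668 and 1262 against 625 and 430, with 655 and 881 at 14 d (1.34). Zmat3, a zinc finger RNA-binding protein, and Epha2, an ephrin receptor, both chosen after their values were seen, rose by 0.96 and 1.16. Gtse1, which restrains p53 in the later cell cycle, read 796 and 694 against 76.9 and 167, but 444 and 254 at 14 d. Its difference against saline 14 d was 0.96 (adjusted p = 0.237), and its call against saline 24 h (2.0, adjusted p = 0.0274) was lost without bleomycin a (0.236), bleomycin b (0.0997) or saline a (0.241). Sfn, the 14-3-3 protein of epithelium, rose by 1.16 at an adjusted p of 0.0497 and lost that call when any 1 of the 4 arrays was left out (0.0503 to 0.353).

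The other 11 targets did not pass against saline 24 h. Fas, the death receptor, read 880 and 686 against 280 and 619, Gadd45a read 1151 and 967 against 538 and 865, and Ddit4 read 2286 and 2411 against 903 and 1167, with adjusted p-values of 0.211, 0.159 and 0.0871. Sesn1 read 934 and 935 against 1349 and 1281 (-0.45, adjusted p = 0.209). Against saline 14 d, both Ddit4 (1.28, adjusted p = 0.0339) and Sesn1 (-0.72, adjusted p = 0.0241) passed the test, and the Ddit4 readings after bleomycin lay above all 4 control arrays. Without saline b, 12 targets were called higher, Fas (1.23) and Gadd45a (0.87) among them, and without bleomycin a, 7. The probe set of Plk3 was bright on the saline 24 h arrays, at 7731 and 7991, read 0.0509 and 1.81 after bleomycin and 1231 and 0.443 at 14 d, so the 2 arrays of the 14 d control pair disagreed with each other as well. Of 29 genes of DNA repair and checkpoints, 31 of the cell cycle and 25 of apoptosis, only Casp4, an inflammatory caspase, was called (596 and 617 against 284 and 333, 0.80, called with none but saline b left out). The share called over all genes was 2.24%.

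Of 37 interferon-stimulated genes tested, 9 rose and 0 fell, where 1.22% of all genes were called higher and 1.02% lower. The median difference was 0.47, beside 0.05 over all genes. Isg15, a ubiquitin-like protein joined to other proteins in antiviral defence, read 3938 and 3407 after bleomycin, 1004 and 814 after saline at 24 h and 1090 and 1034 at 14 d. The rise of 1.91 ± 0.16 (adjusted p = 3.72e-06) had the smallest p of any named gene, and all 4 control arrays lay close together. Ifit1, which binds viral RNA ends, read 2378 and 1855 against 457 and 506, with 482 and 493 at 14 d, a rise of 1.94 ± 0.21. Usp18, the protease that takes Isg15 off its targets, read 2081 and 1845 against 544 and 596, with 625 and 702 at 14 d, a rise of 1.63 ± 0.17. Isg15, Ifit1 and Usp18 were called under all 37 alternatives with the 24 h control.

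Irf7, a transcription factor of the interferon loop, read 1227 and 990 after bleomycin, 327 and 481 after saline at 24 h and 455 and 400 at 14 d (1.29, adjusted p = 0.00428). Rsad2, also called viperin, read 1527 and 1257 against 609 and 495, and 330 and 313 at 14 d, so the difference was larger against the later control, 1.84 against 1.20. Ifit3 rose by 1.09, Mx1 by 0.98, the RNA sensor Ifih1 by 0.78 and Lgals3bp by 0.74, these 4 being chosen after their values were seen. Leaving out 1 array thinned the list: 3 genes were called without bleomycin a, 6 without bleomycin b, 3 without saline a and 7 without saline b. Irf7 lost its call without bleomycin a (adjusted p = 0.0955) or saline a (0.0881), and Rsad2 lost it when any 1 of the 4 was left out (0.0522 to 0.237). Against saline 14 d, 15 of the 37 were called higher, where 2.3% of all genes were. Among the 15 were Iigp1, Irgm1, Sp100 and Daxx, which differed from saline 24 h by 0.68, 0.28, 0.30 and 0.47 (adjusted p-values of 0.236, 0.765, 0.455 and 0.207).

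**Figure D2:**
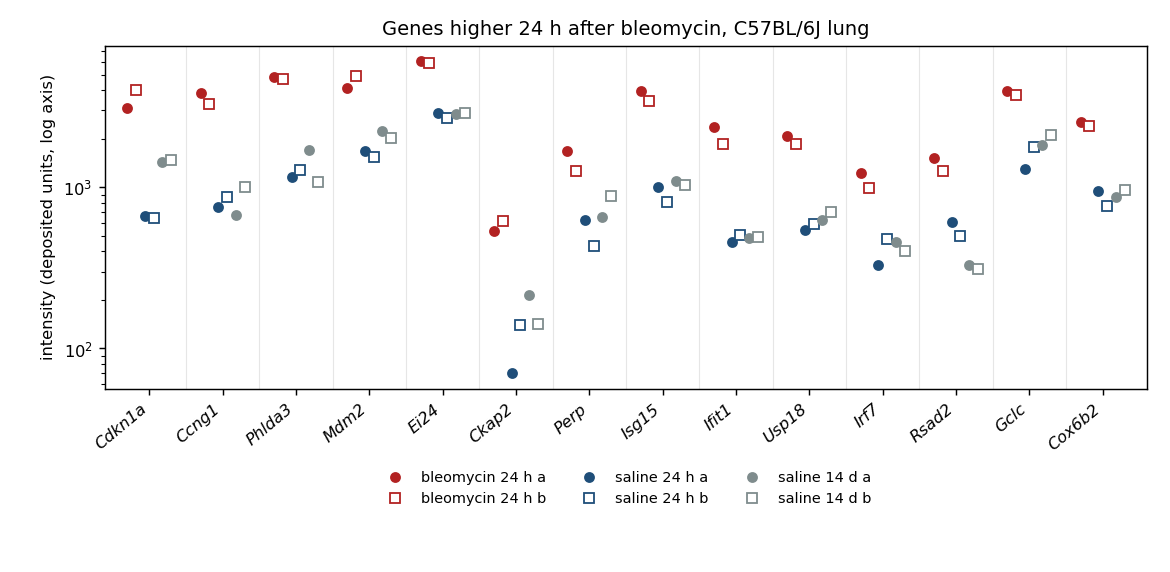
Intensities on a log axis of 14 genes that rose, 1 marker per array, for bleomycin at 24 h (red), saline at 24 h (blue) and saline at 14 d (grey), with circles for array a and squares for array b. Both red markers sit above all 4 control markers for every gene, from the dim Ckap2 to the bright Ei24.

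For genes of inflammation the saline 24 h arrays disagreed with each other. Of 11 tested neutrophil chemokines and cytokines, 6 read more than 1 log2 higher on saline b than on saline a and 0 read that much lower, with a median gap of 1.89, beside -0.01 over all genes, of which 147 of 6468 passed 1 log2. Ccl3, a macrophage chemokine, read 292 and 235 after bleomycin, 137 and 3651 after saline at 24 h and 90.1 and 153 at 14 d. Cxcl2, a neutrophil chemokine, read 526 and 314 after bleomycin, against 97.8 and 3839. Saline b was thus the highest of the 6 arrays for both, and saline a was near the 14 d controls. The cytokine Il1b (1141 and 667 against 262 and 2810) and its receptor antagonist Il1rn (1113 and 574 against 254 and 4081) had the same order. None of these 4, chosen after their values were seen, was called. BALB/c saline at 24 h showed a like gap, with Cxcl2 at 105 and 1478 and Il1b at 477 and 2174 on arrays a and b.

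Of 19 acute phase and complement genes tested, 5 read more than 1 log2 higher on saline b than on saline a and 0 that much lower. Of 12 neutrophil genes, 5 read that much higher and 1, Camp (1036 on saline a and 449 on saline b), that much lower. Saa3, an acute phase apolipoprotein, read 4354 and 9477 after bleomycin, 360 and 25728 after saline at 24 h and 207 and 311 at 14 d. Lcn2, an iron-sequestering protein of neutrophils and epithelium, read 9033 and 6712 against 1301 and 19139, with 3020 and 2515 at 14 d, and Orm1 read 548 and 241 against 9.80 and 2043. The summed intensity of the 12 tested neutrophil markers was 21157 and 17724 after bleomycin, 9268.7 and 33400 after saline at 24 h and 8469.1 and 9011.9 at 14 d. The bleomycin arrays lay between the saline 24 h arrays and above the saline 14 d arrays. S100a8, an abundant neutrophil protein, read 4009 and 4136 after bleomycin and 1856 and 4999 after saline, and it was not called (0.40, adjusted p = 0.826). The part of neutrophil number in these readings was not tested, and in whole lung fewer cells of a type and less RNA per cell cannot be told apart.

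The monocyte chemokines Ccl2, Ccl7, Ccl8 and Ccl12 all read above every control array after bleomycin, and 1 of them passed the test against saline 24 h. Ccl7 read 1247 and 502 after bleomycin, 101 and 231 after saline at 24 h and 99.6 and 33.2 at 14 d, and it rose by 1.84 ± 0.44 (adjusted p = 0.0389). Ccl7 was the 1 called gene of 15 monocyte and lymphocyte chemokines, where 2.24% of all genes were called. Its call was lost without bleomycin a (1.26, adjusted p = 0.418) or saline a (1.47, adjusted p = 0.317). Ccl2, the main monocyte chemoattractant, read 2275 and 1138 after bleomycin, 11.2 and 681 after saline at 24 h and 113 and 60.8 at 14 d. Both bleomycin arrays were above all 4 controls, yet the difference of 2.60 missed the threshold (adjusted p = 0.0702). It was 4.06 without saline b (adjusted p = 0.00514) and 3.28 against saline 14 d (adjusted p = 0.0146). Ccl8 read 322 and 188 after bleomycin, 107 and 67.5 after saline at 24 h and 42.8 and 52.9 at 14 d, a difference of 0.94 (adjusted p = 0.0864) from the first control and of 1.29 (adjusted p = 0.0116) from the later one. Ccl12 read 366 and 310, then 109 and 186, then 48.0 and 55.1, with differences of 0.86 (adjusted p = 0.271) and 1.59 (adjusted p = 0.0179). Ccl8 and Ccl12 were chosen after their values were seen.

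Cxcl1, a neutrophil chemokine, read 3944 and 2445 against 162 and 1483, with 95.2 and 157 at 14 d. Its difference was 2.34 (adjusted p = 0.162) with both controls, 3.66 without saline b (adjusted p = 0.0364) and 3.90 against saline 14 d (adjusted p = 0.0114). Ccl17, a ligand of the lymphocyte receptor Ccr4, read 1700 and 1378 against 244 and 808, and Cxcl10, an interferon-inducible chemokine, read 540 and 206 against 32.4 and 159. Without saline b they differed by 2.27 and 1.81 and were called (adjusted p-values of 0.0175 and 0.0364), as was Saa3 at 3.85 (adjusted p = 0.0364). These 4 were chosen after their values were seen. Without saline a, Ccl3 was called lower, at -3.40 (adjusted p = 0.00669), and so was the cytokine Il1a, also chosen after its values were seen, at -2.02 (adjusted p = 0.00467). Il12b, a subunit of interleukin 12, rose by 1.48 from 80.1 and 35 to 365 and 279 (adjusted p = 0.0148), a call lost without bleomycin a (0.217) or saline b (0.0737). Il6 read 609 and 100 against 6 and 80 and was not called, except without bleomycin b (2.44, adjusted p = 0.0426). Tnf passed the intensity filter on 1 array, saline b at 565, and was not tested.

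**Figure D3:**
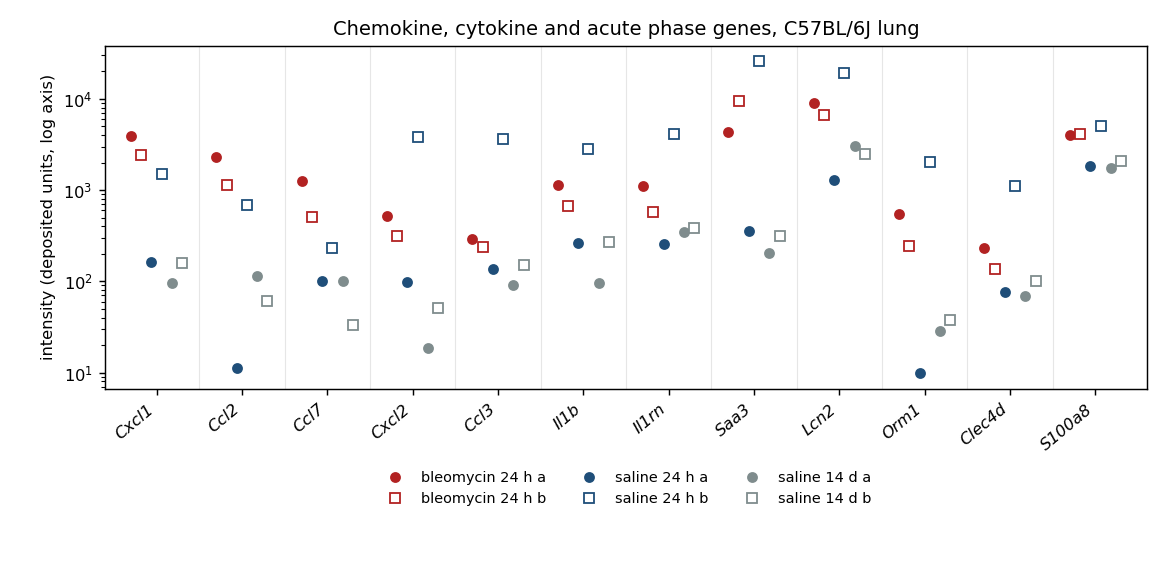
Intensities on a log axis of 12 chemokine, cytokine, acute phase and neutrophil genes, 1 marker per array, colours and symbols as in the plot of genes that rose. The blue square, saline 24 h array b, stands above the blue circle, array a, for all 12 genes, and for Cxcl2, Ccl3, Il1b, Il1rn, Saa3, Lcn2, Orm1, Clec4d and S100a8 it is the highest of the 6. The 12 genes were picked for display. Among all tested members, array b was above array a for 8 of 15 monocyte and lymphocyte chemokines and 8 of 11 neutrophil chemokines and cytokines. Over all genes tested it was above for 3096 of 6468, and the count of 8 of 15 is near that share.

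Oxidant and heat shock genes differed in how they stood to the later control. Gclc, the catalytic subunit of the enzyme that limits glutathione synthesis, read 3948 and 3758 after bleomycin, 1292 and 1788 after saline at 24 h and 1841 and 2114 at 14 d. It rose by 1.29 ± 0.18 (adjusted p = 0.000878), and by 0.93 against saline 14 d. Gpx2, an epithelial glutathione peroxidase, rose by 1.11 from 679 and 1279 to 2212 and 2055 (adjusted p = 0.0414). That call was lost without bleomycin a (0.288), bleomycin b (0.133) or saline a (0.411). The other called gene of the 32 oxidant defence genes, Gstm1, was bright and lower. Hmox1, heme oxygenase, read 3739 and 3245 against 2099 and 5377 and was not called, and the metallothioneins Mt1 (4799 and 7357 against 1685 and 2006) and Mt2 (6967 and 9232 against 1904 and 5511) were not called either, with adjusted p-values of 0.128 and 0.3.

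Of 21 heat shock chaperones, 3 were called higher against saline 24 h and 0 against saline 14 d, beside 1.22% and 2.3% of all genes. Hspa1b, an inducible Hsp70, read 1112 and 1169 after bleomycin, 428 and 545 after saline at 24 h, and 861 and 1387 after saline at 14 d. Its difference was 1.10 (adjusted p = 0.0332) against the first control and 0.05 against the second. The bleomycin arrays of Hspa1b thus lay within the later control pair. Hspb8 (2249 and 2319 against 1028 and 1404, then 2202 and 2275) and Hspa1a (940 and 918 against 553 and 397, then 969 and 1167) likewise read near the later control. The unfolded protein response gene Creld2 (0.73 and 0.08), the lymphatic marker Lyve1 (0.75 and 0.03) and the interleukin 4 receptor Il4ra (0.97 and 0.36) also differed less from the 14 d control. Hspa1b, Hspb8, Creld2, Lyve1 and Il4ra were called without saline b and lost their calls without bleomycin a, bleomycin b or saline a, and Hspa1a lost its call when any 1 of the 4 was left out.

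Among other rises clear of both control pairs, Cox6b2, a subunit of cytochrome oxidase known from testis, read 2527 and 2395 against 952 and 768, with 875 and 960 at 14 d. That probe set rose by 1.43 ± 0.16, and the other 2 probe sets of the gene differed by 0.30 and 1.78. Gas6, a ligand of the Axl receptor that was chosen after its values were seen, read 7135 and 7390 against 3401 and 2891, with 4811 and 4755 at 14 d (1.19). Fos, an immediate early transcription factor, read 3586 and 2533 against 1078 and 1450, with 968 and 1476 at 14 d (1.21, adjusted p = 0.0217). It was the 1 rise among 25 immediate early genes, where 1.22% of all genes were called higher. The calls for Fos were lost without bleomycin a (0.288) or saline a (0.228). The 1 called fall of that list was in Jund, a subunit of the same AP-1 factor, which was bright on the saline 24 h arrays and is given with the falls. Bcl3, an atypical member of the inhibitor family of NF-kappaB, rose by 1.28 (adjusted p = 0.0468) and lost that call when any 1 of the 4 arrays was left out (0.0503 to 0.337).

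Gm9706, a predicted gene, rose by 1.74 (1017 and 767 against 218 and 183) and was called under all 37 alternatives. Several further rises were clear of both pairs but lost their calls when an array was left out. The stress gene Gadd45g rose by 1.30 (1359 and 1332 against 502 and 482), and Gfpt2, of the hexosamine pathway, by 1.32 (1371 and 2013 against 711 and 524). Both lost their calls when any 1 of the 4 arrays was left out (0.0535 to 0.19). Cldn4, a tight junction claudin raised in injured alveolar epithelium, rose by 1.50 (589 and 679 against 74.3 and 305), and Gpd1, Cyp7b1, Thyn1 and Mbd1 rose by 1.37, 1.23, 1.24 and 1.21. Those 5 genes were called without saline b and not without bleomycin a, bleomycin b or saline a. Myt1l rose by 1.49 (504 and 596 against 137 and 136) and lost its call when any 1 of the 4 was left out (0.0503 to 0.113). The smallest p of any probe set belonged to one with no gene name in the array annotation. It read 2659 and 2300 after bleomycin, 58.8 and 65 after saline at 24 h and 112 and 77.6 at 14 d, a difference of 4.07 ± 0.24 (adjusted p = 2.56e-08).

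The largest falls clear of both control pairs were those of Tff2, Jund, Myo1c, Grb7 and Bpifb1. Tff2, a trefoil peptide of mucus, read 152 and 114 after bleomycin, 1132 and 1443 after saline at 24 h and 671 and 604 at 14 d. It fell by 2.62 ± 0.45 on the log2 scale (adjusted p = 0.00503), and it differed by -1.71 against saline 14 d (adjusted p = 0.0374). Bpifb1, a secreted protein of airway glands, read 1097 and 696 against 2502 and 4486, with 2217 and 2002 at 14 d (-1.83, adjusted p = 0.00705). The bleomycin arrays were the lowest 2 of the 6 for both genes. The Bpifb1 call was lost without bleomycin b (0.093) or saline b (0.0605). In BALB/c lung at 24 h Tff2 read 126 and 65 after bleomycin and 251 and 124 after saline, so those saline arrays were dim as well. Jund read 2909 and 2944 after bleomycin, 17463 and 18358 after saline at 24 h and 3573 and 3093 at 14 d. It fell by 2.58 (adjusted p = 0.0435) but differed by -0.18 from saline 14 d (adjusted p = 0.919), and it lost its call when any 1 of the 4 arrays was left out (0.108 to 0.26).

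Cyp1a1, the cytochrome P450 induced through the aryl hydrocarbon receptor, read 101 and 113 after bleomycin, 738 and 432 after saline at 24 h and 849 and 976 at 14 d. It fell by 1.73 ± 0.25 (adjusted p = 0.00104) and by 2.34 against saline 14 d, and its call held under all 37 alternatives with the 24 h control. The bleomycin readings were close to the offset of 91, so the change in intensity is larger than that figure. Cyp2f2, the club cell cytochrome, was the other called gene of 16 in xenobiotic metabolism, and it was bright. Of the 15 clock genes only Dbp was called (149 and 175 against 877 and 867), but the saline 14 d arrays read 390 and 97, and it lost its call when any 1 of the 4 arrays was left out (0.0534 to 0.197). Nr1d1, chosen after its values were seen, read 1082 and 1119 against 2395 and 1897, with 3006 and 2024 at 14 d, and passed the test against the later control (-1.10, adjusted p = 0.0171) but not against the first (-0.90, adjusted p = 0.0707).

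Clic3, an intracellular chloride channel protein, read 1655 and 1469 against 2966 and 3221, with 3336 and 2938 at 14 d, and it fell by 0.95 against saline 24 h and by 0.97 against saline 14 d (adjusted p-values of 0.00428 and 0.00269). Clic3 was called with each of the 4 arrays left out. Kcnk2, a mechanosensitive potassium channel, read 412 and 525 against 1063 and 836, with 1475 and 1294 at 14 d (-0.89, adjusted p = 0.0106). Cftr, the chloride channel of airway epithelium, read 367 and 354 against 652 and 574, with 819 and 763 at 14 d (-0.64). Lpcat1, which makes surfactant phospholipid in type 2 cells, read 1487 and 1763 against 2951 and 2585, with 4901 and 3649 at 14 d (-0.74). Ramp1, a partner of the calcitonin receptor family, read 898 and 969 against 1888 and 1404, with 2594 and 1946 at 14 d (-0.75). For Kcnk2, Cftr, Lpcat1 and Ramp1 the saline 14 d arrays stood above the saline 24 h arrays, and the differences from them were -1.40, -0.97, -1.34 and -1.19. Fgfr2, the epithelial receptor of fibroblast growth factors, read 2522 and 2799 against 4989 and 4464, with 4894 and 5345 at 14 d (-0.81).

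Grb7, an adaptor of receptor kinases, read 338 and 331 against 1682 and 1386, with 1424 and 463 at 14 d (-1.93), and Myo1c, a motor protein, read 156 and 158 against 868 and 925, with 262 and 286 at 14 d (-1.99). The 2 differed by -1.11 and -0.56 from saline 14 d and were not called there. The ion transporter Slc4a5 and the chemokine scavenger Ackr4 both fell by 1.50, and Acss1, a mitochondrial acetate enzyme, fell by 0.96. Cmtm8, Gpr19, Pygb, Huwe1, Ppp3ca, Slc6a6, Itpr2, Pbx3 and Npc1 fell by 0.60 to 0.93. Of the 23 non-bright falls named here, Tff2, Cyp1a1 and Clic3 were called with each of the 4 arrays left out. Bpifb1, Grb7, Myo1c and Kcnk2 were called in 2 of those 4 fits, while Fgfr2, Slc6a6, Huwe1, Pygb and Gpr19 were called in none and the other 11 only without saline b. Hc, complement C5, chosen after its values were seen, read 1145 and 1204 against 5718 and 4042, with 6511 and 6102 at 14 d, and passed the test against the later control (-2.34, adjusted p = 0.0143) but not against the first (-1.95, adjusted p = 0.0553).

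**Figure D4:**
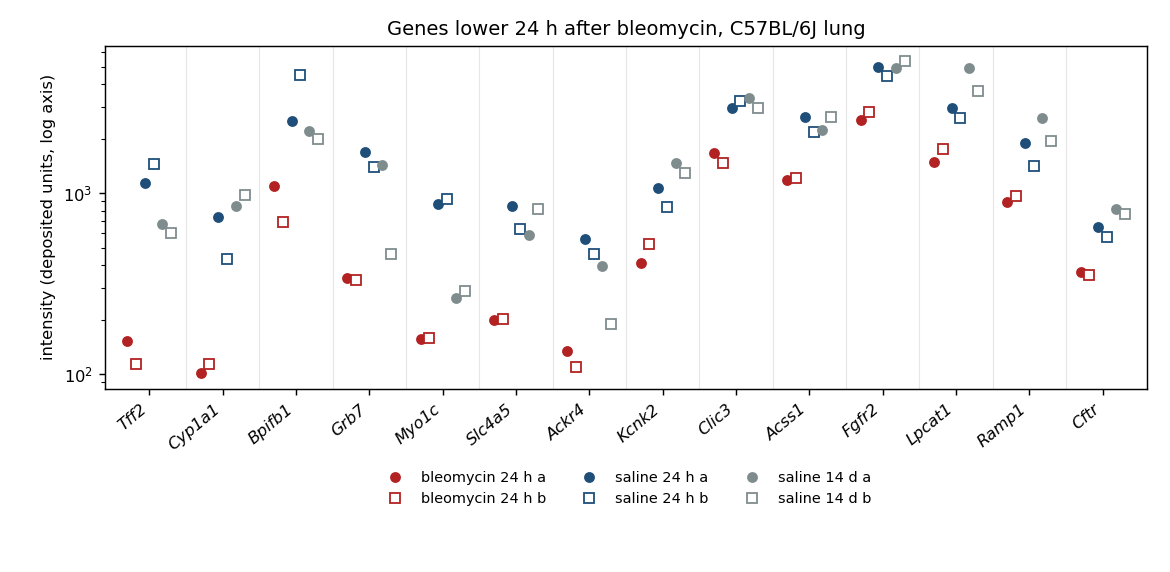
Intensities on a log axis of 14 genes that fell, 1 marker per array, colours and symbols as in the plot of genes that rose. Both red markers sit below all 4 control markers for every gene. For Myo1c the grey markers lie near 270, well under the blue pair near 900, and for Cyp1a1, Kcnk2, Lpcat1, Ramp1 and Cftr the grey markers lie above the blue.

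Among markers of lung cell types the steep falls were in probe sets that were bright on the saline 24 h arrays. Slc34a2, a phosphate transporter of type 2 cells, read 5609 to 16101 over the 6 arrays and Cyp2f2, of club cells, 4026 to 12395. Sftpc, surfactant protein C, read 648 and 5099 after bleomycin, 78641 and 43230 after saline at 24 h and 650 and 127 at 14 d. Scgb1a1, the club cell secretoglobin, read 1029 and 4924, then 54857 and 37086, then 3118 and 335. Ager, the receptor that marks type 1 cells, read 1045 and 2119, then 30434 and 23389, then 4056 and 443. These genes were called lower against saline 24 h (-4.90, -4.25 and -4.08) and differed by 2.28, 1.02 and 0.09 in the other direction from saline 14 d. The same order held in genes of other cells. Hba-a1, a haemoglobin of red cells, read 652 and 542, then 63583 and 37045, then 361 and 345, and Rpl41, a ribosomal protein of every cell, read 270 and 364, then 72342 and 39782, then 4.3 and 229.

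Over whole lists, the 8 tested type 2 markers had a median difference of -1.15 from saline 24 h and 0.04 from saline 14 d, with 3 called lower. Their summed intensity was 24063 and 38574 after bleomycin, 162670 and 113610 after saline at 24 h, and 37516 and 20755 at 14 d. The club cell list had medians of -0.74 and 0.17, the type 1 list -0.37 and 0.02, and the ribosomal list -0.69 and 0.17. Slc34a2 was the 1 bright epithelial marker whose bleomycin arrays lay below both control pairs (-1.32, adjusted p = 0.00158), and it differed from saline 14 d by -0.54 (adjusted p = 0.138). Of the endothelial genes Kdr and Eng were called lower against saline 24 h, with differences of 0.14 and -0.02 from saline 14 d. Nos3, the endothelial nitric oxide synthase, chosen after its values were seen, read 97 and 75 against 385 and 235, with 435 and 444 at 14 d (-1.16, adjusted p = 0.0521, and -1.59, adjusted p = 0.00601).

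No tested gene of the matrix and fibroblast lists was called against saline 24 h, where 2.24% of all genes were called. Col1a1 read 5045 and 4895 after bleomycin and 4690 and 5695 after saline, Col3a1 3552 and 3014 against 2349 and 3820, and Fn1, fibronectin, 1461 and 1467 against 1808 and 1812. Each bleomycin array of Col1a1 and Col3a1 lay within the range of the saline pair. Of the 34 collagen and matrix genes, the 26 of TGF-beta and fibroblast activation and the 26 of proteases and coagulation, 0 were called in limma. At an unadjusted p under 0.05 there were 5, 2 and 4, where 544 of all 6468 genes were higher and 379 lower. At 2.24%, fewer than 1 call would fall on a list of 34 genes, so these zeros are close to the background. Against saline 14 d, 2.3% of all genes were called higher and 2.52% lower, so the few calls on these short lists are a description only. There the collagen and matrix list held 2 lower calls (P4ha2 and Fbln1) and the TGF-beta list 3 lower (Igfbp3, Pdgfrb and Smad6). The protease list held 2 higher (Slpi and Mmp3) and 1 lower (Thbd). These 8 genes were chosen after their values were seen. Acta2, Timp1, Tgfb1, the macrophage marker Cd68 and Blmh, the hydrolase that inactivates bleomycin, were not called either. The lists of macrophages (19 tested), T and NK cells (13), B cells (11), MHC class II (13) and the respiratory chain (33) held 0 called genes in limma. They held 4, 0, 2, 1 and 1 genes at an unadjusted p under 0.05, beside the same 544 higher and 379 lower of all 6468 genes. Summed intensity of 15 heart and skeletal muscle genes was 13117 and 13350 after bleomycin, 15685 and 14693 after saline at 24 h and 22429 and 21152 at 14 d. The sum was highest in the later control, and the source of this RNA was not tested.

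**Figure D5:**
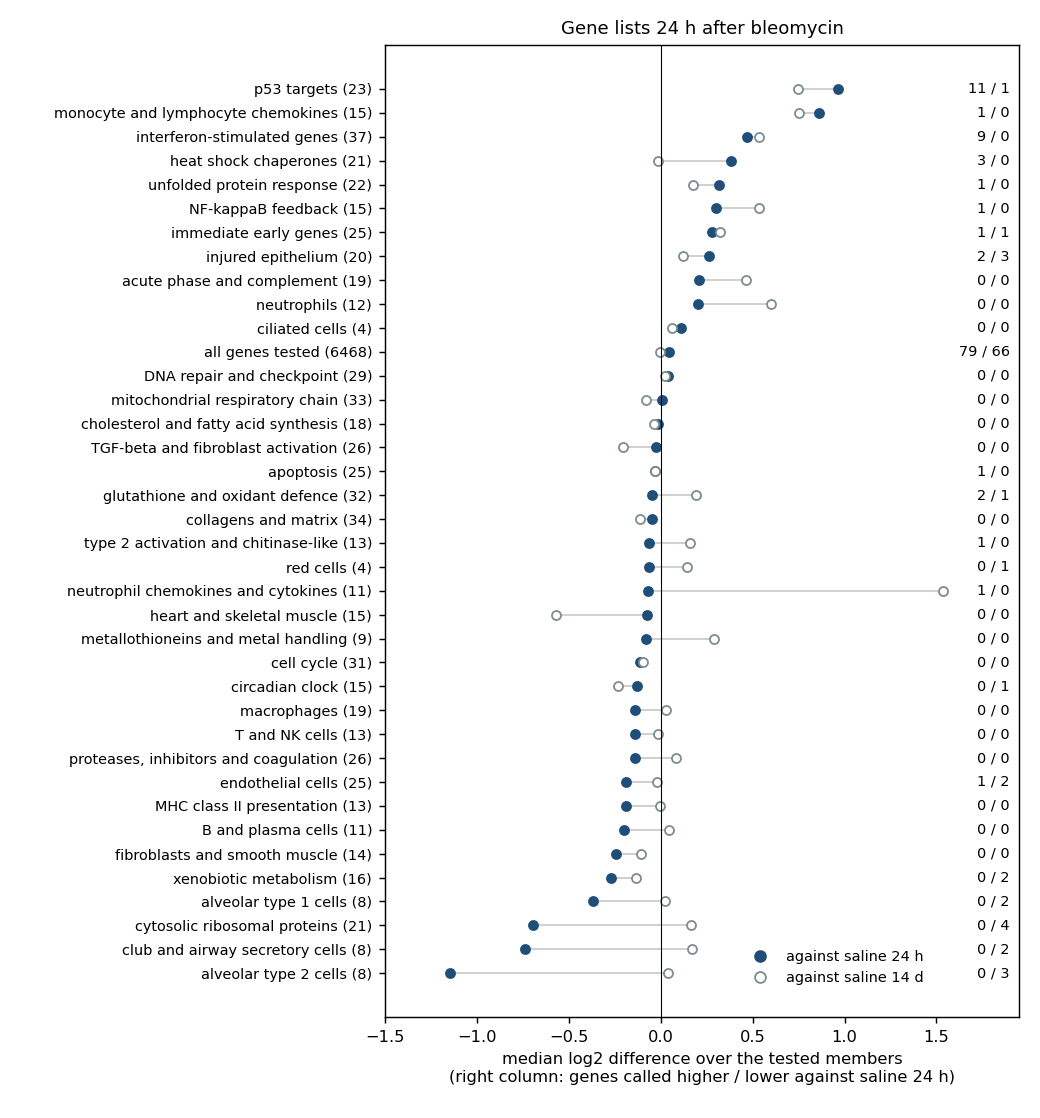
Median log2 differences over the tested members of 37 gene lists and of all genes tested (number tested in brackets), bleomycin against saline at 24 h (filled) and against saline at 14 d (open), with counts of genes called higher and lower against saline 24 h at the right. The p53 and interferon lists lie to the right with both controls, but not they alone. The monocyte and lymphocyte chemokine list (0.86 and 0.75), the NF-kappaB feedback list (0.30 and 0.53) and the immediate early list (0.28 and 0.32) are among others that do. The type 2, type 1 and club cell lists and the ribosomal list lie to the left with the 24 h control and right of 0 with the 14 d control.

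Isg15 rose more in C57BL/6J than in BALB/c lung at the same time. The test of the difference between strains called 2 probe sets, 0.0229% of those tested, and 1 was that of Isg15 (1.62 ± 0.23, adjusted p = 0.0128): in BALB/c lung it read 1173 and 1156 after bleomycin and 1092 and 794 after saline. Ifit1 (533 and 488 against 392 and 268) and Usp18 (652 and 681 against 481 and 464) were also dim in BALB/c lung, and their differences between strains of 1.41 and 1.21 had adjusted p-values of 0.0984. Of the p53 targets, Ccng1 (2789 and 2936 against 1100 and 856) and Cdkn1a (2307 and 2424 against 482 and 1194) rose in BALB/c lung as well, by 1.48 and 1.52, and their differences between strains of 0.54 and 0.77 did not pass (adjusted p-values of 0.593 and 0.55). The call for Isg15 was lost without C57BL/6J bleomycin a or BALB/c bleomycin b, when no probe set was called.

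Within C57BL/6J, the effect at 24 h differed from that at 14 d for 178 genes (2.75%), 88 of them higher at 24 h (1.36%). The saline pair of the same time was the control of each effect, so a gap between those pairs enters the difference. Isg15 read 3221 and 2391 after bleomycin at 72 h and 999 and 1049 at 14 d, close to the 1090 and 1034 of saline at 14 d, and the difference between the effects was 1.96 (adjusted p = 0.00046). Usp18, with 2176 and 1842 at 72 h and 415 and 557 at 14 d, and Ifit1, with 2073 and 1670 and then 511 and 450, had the same course (2.03 and 1.96). Ccng1 was at 3420 and 3195 at 72 h and 890 and 1219 at 14 d (1.72, adjusted p = 0.00612). Phlda3, at 3154 and 2150 after bleomycin at 14 d, was called against saline at that time too (0.89, adjusted p = 0.0111). In the other direction Arg1, arginase of alternatively activated macrophages, read 396 and 226 at 24 h and 4652 and 2903 at 14 d (-4.32, adjusted p = 0.00098), Fst, follistatin, 44 and 36 and then 1453 and 1072 (-3.76), and Fbln2, a matrix fibulin, 369 and 481 and then 2591 and 1740 (-2.09).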

How the data were processed

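Lung RNA of 24 arrays was measured on an Affymetrix murine array, per the labels. The deposited table gives an intensity on a linear scale for each probe set of each array. Trimmed of values under the 2nd or over the 98th percentile, every array had a mean of 799.9, so the intensities were used as deposited. No source used here names the algorithm that made them. An offset of 91, the median of the arrays' lower quartiles, was added and log2 taken. A probe set was tested if at least 2 arrays passed 224.6, the 40th percentile of all values. With limma 3.58.1 in R 4.3.3, a mean for each of 12 groups of 2 arrays was fitted, with 12 residual degrees of freedom, a variance trend, two-sided tests and Benjamini-Hochberg adjustment over 8718 probe sets. The number of arrays limits the precision. The saline arrays of 72 h, on which genes that separate the strains read against their labels, entered through the pooled spread alone, and 1 alternative left them out.

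Where several probe sets carry one gene's name, the brightest on average stood for the gene. Named were the 25 largest rises and 25 largest falls among genes called and clear of both control pairs, up to 5 called members of each of 37 gene lists, the 6 steepest bright falls, up to 10 called probe sets of each interaction and a set of genes whether or not called. Genes outside this rule are said to be chosen after their values were seen. The members, lists and tests were chosen with earlier results of these data known. Promoter sequences come from RefSeq on GRCm38.p6, and genes without one in that table were left out of the motif counts. Alternatives were 2 other normalizations, other offsets and filters, no variance trend, array weights, a block for the array letter, C57BL/6J arrays alone, the bright probe sets left out, other saline controls and leaving out each array in turn. The letters a and b did not pair the arrays: the correlation of the gaps between a and b was -0.07 between the bleomycin and saline groups of 24 h.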

Additional observations from a re-analysis of the deposited data

Results flagged for a closer look

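In a test of the difference between effects, 34 named genes had a bleomycin effect in C57BL/6J lung at 24 h that differed from that at 14 d. The difference is signed, the 24 h effect minus the 14 d effect, and its sign does not tell which effect was larger in size. It was positive for the p53 targets Ccng1 (1.72), Mdm2 (1.09), Perp (1.15) and Ei24 (1.07) and the interferon genes Ifit1 (1.96), Isg15 (1.96) and Usp18 (2.03). The same held for the heat shock genes Hspa1b (1.96) and Hspa1a (1.70), and for Gm9706 (1.58), Cox6b2 (1.57), Gclc (1.19), Mbd1 (1.40) and Creld2 (1.31). The difference was negative for Arg1 (-4.32), Fst (-3.76), Fbln2 (-2.09), Peg3 (-1.56), Slc6a6 (-1.30), Npc1 (-0.74) and Myo1c (-3.29). Of these, Slc6a6, Npc1 and Myo1c were called falls at 24 h (-0.68, -0.60 and -1.99). The remaining 13 are probe sets that were bright on the saline 24 h arrays: Rps28 (-2.27), Hopx (-2.22), Eng (-2.30), Rpl8 (-2.91), Ager (-5.90), Scgb1a1 (-7.04), Sprr1b (-4.96), Sftpc (-7.99), Snrpb (-6.82), Hba-a1 (-8.20), Plk3 (-8.39), Ly6e (-8.89) and Rpl41 (-8.87). Each effect was taken against the saline pair of its own time, so differences between the saline pairs enter these values. Against saline 14 d, the 24 h bleomycin arrays differed by 0.08 for Creld2 and -0.56 for Myo1c. Neither gene was called there, nor were Hspa1b and Hspa1a.

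In the test of the difference between strains at 24 h, the C57BL/6J effect minus the BALB/c effect was positive for Isg15 (1.62). It was negative for a second probe set of Glul, glutamine synthetase (-2.11). With 2 arrays in a group no array was tested as an outlier of its group.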

How the results depend on the processing

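The count of 194 probe sets called for bleomycin against saline at 24 h stood at 121 with quantile normalization, 84 with the C57BL/6J arrays alone, 126 with bright probe sets left out (69.8% of the calls higher, against 53.6%) and 430 with saline 14 d as the control. With the replicate block it was 177, and the pairing by letter was not borne out, so that fit is a check only. Leaving out 1 array gave 38 to 269. The lowest came without bleomycin a and the highest without C57BL/6J bleomycin 14 d b, which enters only the pooled spread. Against saline 14 d the count of 430 was 201 with the C57BL/6J arrays alone and 83 to 540 with 1 array left out. Saline 24 h against saline 14 d gave 320 probe sets, and 141 with quantile normalization, 64 with the C57BL/6J arrays alone, 177 without the 72 h saline arrays, 105 with array weights, and 62 to 445 with 1 array left out. The strain difference of 2 was 11 with 3 times the offset, 5 without the 72 h saline arrays, 4 with array weights, and 0 to 28 with 1 array left out. The 24 h minus 14 d difference of 236 was 66 with the C57BL/6J arrays alone, 116 with array weights, and 69 to 847 with 1 array left out. Against saline 14 d, 13 named genes turned their sign: Hspa1a (-0.18), Gstm1 (0.17), Kdr (0.14), Rps28 (0.38), Rpl8 (0.15), Rps24 (0.013), Ager (0.091), Scgb1a1 (1.02), Sftpc (2.28), Snrpb (1.19), Hba-a1 (0.63), Ly6e (0.38) and Rpl41 (1.22). The causes were not tested. Of 81 called named genes, 20 kept their call with each of the 4 arrays left out and 18 under every alternative with the 24 h control.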
